A study of Mus musculus with 10 samples.

Results

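The genes described here are 10 enzymes of glycerophospholipid synthesis, picked by their symbols from a table of 47340 genes, where each symbol matched 1 row. They are Gpam, a mitochondrial glycerol-3-phosphate acyltransferase; Agpat1, Agpat2 and Agpat3, lysophosphatidate acyltransferases; Lpin1, Lpin2 and Lpin3, the lipins; Pcyt1a and Pcyt2, which make CDP-choline and CDP-ethanolamine; and Lpcat3, which puts new acyl chains on lysophosphatidylcholine. Most of this synthesis takes place in the membrane of the endoplasmic reticulum (ER), where glycerol-3-phosphate is acylated to lysophosphatidate and then to phosphatidate, which lipins dephosphorylate to diacylglycerol. Diacylglycerol is either acylated once more to triglyceride, the cargo of lipid droplets, or joined to choline or ethanolamine to give phosphatidylcholine or phosphatidylethanolamine. FIT2, the protein deleted in these mice, acts in the same membrane, where droplets bud.

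RNASeq had been done on polyadenylated RNA from whole islets of 5 floxed control (FL) and 5 βFIT2KO (KO) mice, 12 wk old males on chow, with 1 library per mouse, after the islets had rested overnight in culture. FL mice are titled Flox in the labels, where their genotype is given as wild type. They carry the floxed gene of FIT2 (Fitm2), and KO mice carry it together with Cre recombinase driven by the rat insulin promoter, from a B6.Cg line; the labels give no strain. The methods name no Cre for the floxed littermates, so effects of Cre and of Fitm2 loss cannot be told apart. Values are FPKM, read counts scaled to the length of the gene and to the size of the library, which allow levels of different genes to be compared per length.

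The FPKM of a library summed to 646233 to 675470 in FL and to 627084 to 653292 in KO. Depth in reads is unknown; judged from the spacing of the lowest values, the other 9 libraries were 1.40 to 2.41 times as deep as that of FL mouse 1. Fitm2 was at 15.5 to 37.1 FPKM among FL mice and at 4.30 to 9.13 FPKM among KO mice, without overlap. The islet label was checked against markers: 3 of 10 β cell markers (Ins1, Ins2 and Iapp) and Gcg are listed at 0 in all 10 libraries, whereas Mafa, Pdx1, Nkx6-1, Slc2a2, Slc30a8, G6pc2 and Ucn3 were detected throughout. The summed FPKM of the β cell markers was 2273 to 2844 in FL and 1511 to 2124 in KO, with 6 of 7 tested genes lower in KO. The 6 α cell markers summed to 435 to 650 FPKM among FL mice and 288 to 429 FPKM among KO mice (2 of 5 tested genes lower), and the 4 markers of δ and PP cells to 8261 to 22082 FPKM among FL mice and 12956 to 18208 FPKM among KO mice (1 of 4 lower). Macrophage markers summed to 46.9 to 65.1 FPKM among FL mice and 85.7 to 96.9 FPKM among KO mice (2 of 4 tested genes higher), fibroblast markers to 11.9 to 20.3 FPKM among FL mice and 24.2 to 33.2 FPKM among KO mice (5 of 5 higher), and endothelial markers to 160 to 186 FPKM among FL mice and 179 to 243 FPKM among KO mice (3 of 6 higher). Sums of 5 duct cell markers overlapped, at 594 to 659 FPKM among FL mice and 512 to 642 FPKM among KO mice (1 of 4 tested genes lower and 1 higher). Among the duct genes tested, Cftr had a mean of 0.0372 FPKM over FL mice and 2.13 FPKM over KO mice. Cftr reached the mean of 1 FPKM needed for testing through KO alone and so had to differ to be tested. Acinar markers varied widely, from 4452 to 11865 FPKM among FL mice and from 2952 FPKM in KO mouse 2 to 21848 FPKM in KO mouse 5, and none of the 9 passed the test. Of 6 adipocyte markers, Adipoq and Cfd are listed at 0 in all 10 libraries, Plin1 and Lep did not exceed 0.00789 and 0.0139 FPKM, and the sum, 8.41 to 19.6 FPKM among FL mice and 19.6 to 29.9 FPKM among KO mice, was nearly all Fabp4, the 1 gene tested, which was higher in KO. Whether these shifts in markers have a part in the results below was not tested. In whole islets, fewer cells of a type and less RNA per cell cannot be told apart.

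The question put to these libraries was whether the enzymes that feed the ER membrane with phosphatidate and phospholipid are expressed differently once β cells lack FIT2. Agpat2 and Agpat3 were lower in KO islets, each by about the same proportion, and the other 8 genes did not pass the test. Thus 2 of 10 members were lower and 0 were higher, where 16.5% of the 13065 genes tested were lower and 9.05% higher, so the share lower was near that of the table as a whole. Over those genes, 2150 were lower and 1183 higher in KO by limma on log2(FPKM + 1) at a Benjamini-Hochberg adjusted p of at most 0.05, and after rescaling by the median ratio the split was 1531 lower and 1621 higher. The median log2 fold change was −0.06 for the 10 members and −0.06 for the genes tested. All 10 members were above the filter of a mean of 1 FPKM in FL or in KO, in both groups. At least 1 KO mouse lay within the FL range for each of the 10 members, where 19.1% of the genes tested had FL and KO values that did not overlap.

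**Figure D1:**
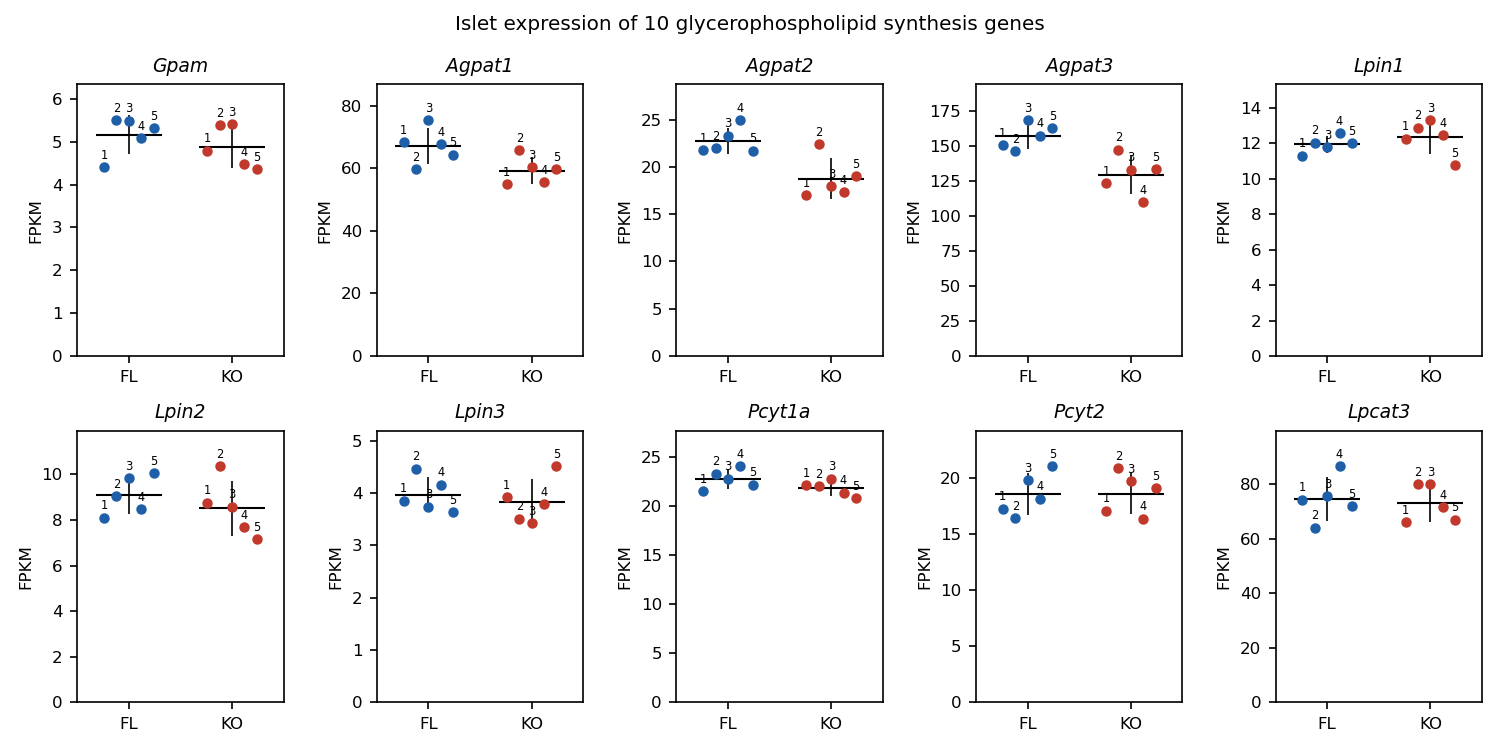
FPKM of the 10 genes in each mouse, with FL mice in blue, KO mice in red, replicate numbers beside the points, the mean as a horizontal line and the SD as a vertical line (n = 5 per group). For Agpat2 and Agpat3, 4 of 5 KO mice lie below the lowest FL mouse and KO mouse 2 lies among the FL mice.

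The levels themselves spanned a wide range, and their order by group mean was the same in FL and in KO. Agpat3 was the most abundant at a mean of 157 FPKM in FL, which put its mean over all libraries above that of 94.6% of the genes tested. Lpcat3 at 74.4 FPKM and Agpat1 at 67.2 FPKM followed, and the FL ranges of that pair overlapped. Pcyt1a and Agpat2 came next at 22.8 and 22.7 FPKM, again with overlapping ranges, then Pcyt2 at 18.5 FPKM, Lpin1 at 12.0 FPKM and Lpin2 at 9.10 FPKM. Gpam at 5.16 FPKM and Lpin3 at 3.97 FPKM, with overlapping ranges, were the least abundant. In KO islets Agpat2 overlapped Pcyt2 as well as Pcyt1a, and Lpcat3, at 66.0 to 80.03 FPKM, lay just above Agpat1, at 54.9 to 65.8 FPKM.

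To show where 2 of these genes start, the 250 bases before the RefSeq start are given for Agpat2, which was lower in KO, and for Pcyt1a, which holds the sole match among the members to the sterol regulatory element. Both are from GRCm38.p6 and are written 5′ to 3′ on the strand of the gene, Agpat2 from the minus strand at chr2:26604418-26604667 and Pcyt1a from the plus strand at chr16:32430671-32430920. Capitals mark matches to the GC box GGGCGG or to the sterol regulatory element TCACNCCAC, on either strand.
Agpat2: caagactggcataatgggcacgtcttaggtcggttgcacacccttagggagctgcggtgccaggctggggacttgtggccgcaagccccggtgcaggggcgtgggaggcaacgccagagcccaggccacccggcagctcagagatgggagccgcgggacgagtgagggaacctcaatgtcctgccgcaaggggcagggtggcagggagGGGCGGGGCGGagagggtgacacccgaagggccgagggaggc
Pcyt1a: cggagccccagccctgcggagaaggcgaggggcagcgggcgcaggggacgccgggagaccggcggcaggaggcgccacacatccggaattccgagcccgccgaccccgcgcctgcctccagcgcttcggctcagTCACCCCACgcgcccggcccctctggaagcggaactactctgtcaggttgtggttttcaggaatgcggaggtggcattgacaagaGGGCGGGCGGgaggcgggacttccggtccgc
The Agpat2 window had 2 GC boxes, which share a base and whose first bases lie 42 and 37 bases before the start, and none of the other motifs searched. In the Pcyt1a window the sterol element begins 116 bases before the start and a pair of GC boxes at 31 and 27 bases. RefSeq gave 16 such windows for 9 members, Pcyt2 being unmatched. The sterol element was in 2 overlapping windows of Pcyt1a and in 1.05% of the 32851 windows of mouse genes, the E-box CACGTG in 1 window, of Lpin2, and in 6.02% of all windows, CCAAT in 4 and 33.8%, and the GC box in 10 and 32.7%. No match to 1 motif overlapped a match to another. Agpat3, the other member lower in KO, had a window at chr10:78351701-78351950 with none of these letters. That window lies inside the GENCODE span of Agpat3, 78269178 to 78352489, and is not printed. A match is a description of letters and not of binding.

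The acyltransferases came first in the pathway and held both genes that passed. Agpat3 (chromosome 10, 78269178 to 78352489, minus strand, GENCODE M21 on GRCm38) was at 151, 146, 169, 158 and 163 FPKM in FL mice 1 to 5 and at 123, 148, 133, 110 and 133 FPKM in KO mice 1 to 5. KO mouse 2 was above FL mouse 2, and the other 4 KO mice were below the lowest FL mouse. The mean fell from 157 ± 9.06 to 129 ± 13.9 FPKM (SD, n = 5), with limma putting the log2 fold change at −0.28 (SE 0.08, 95% interval −0.45 to −0.12, adjusted p = 0.0193). An exact two-sided permutation test, which cannot go below 0.00794 with 5 mice against 5, gave p = 0.0159 for Agpat3. The limma call held in each of the 19 alternatives with the same fold threshold, with adjusted p from 0.00341 to 0.0498, but the change was under 1.5-fold, as that of Agpat2 was too; 4.89% of the genes tested passed with a change of at least that size, and 0 of the 10 members.

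Agpat2, the isoenzyme whose loss causes lipodystrophy, spans chromosome 2, 26593057 to 26604417 (minus strand). It was at 21.7, 22.0, 23.3, 25.0 and 21.7 FPKM in FL mice 1 to 5 and at 17.0, 22.4, 18.0, 17.3 and 19.0 FPKM in KO mice 1 to 5. KO mouse 2 again lay among the FL mice and the other 4 KO mice below them. Its mean fell from 22.7 ± 1.41 to 18.8 ± 2.17 FPKM (SD, n = 5), with limma putting the log2 fold change at −0.27 (SE 0.07, 95% interval −0.43 to −0.11, adjusted p = 0.0221; exact two-sided permutation p = 0.0317). This call was close to the threshold. It was lost without FL mouse 3 (adjusted p = 0.0511 from limma), FL mouse 4 (0.0502), KO mouse 1 (0.0562) or KO mouse 4 (0.0566), each time leaving Agpat3 as the only member past the test, and without KO mouse 2 its adjusted p was 0.00239. With library sums made equal (TPM) it was 0.0561. The last 64 bases of the gene overlap Egfl7 on the other strand, at a mean of 33.5 FPKM among FL mice and 35.0 FPKM among KO mice. Gm20532, also on the other strand, spans all 11361 bases of Agpat2, at a mean of 0.0878 FPKM over FL mice and listed at 0 in KO mice, and the strand setting of the counting is not given in the sources used here.

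Agpat1 (chromosome 17, 34604262 to 34613449, plus strand) was at 68.3, 59.8, 75.5, 67.7 and 64.4 FPKM in FL mice 1 to 5 and at 54.9, 65.8, 60.4, 55.7 and 59.7 FPKM in KO mice 1 to 5. KO mice 2 and 3 lay within the FL range and the other 3 KO mice below it. The log2 fold change was −0.18 (SE 0.07, 95% interval −0.33 to −0.02) and did not pass over all genes tested (adjusted p = 0.0867 from limma; exact two-sided permutation p = 0.0476). Without FL mouse 2 (adjusted p = 0.0451 from limma) or KO mouse 2 (0.0406) it passed as lower. Agpat1 passed in 3 of the 20 alternatives. It did not pass after rescaling by the median ratio (−0.12, adjusted p = 0.205 from limma), to TPM (−0.13, 0.218) or by quantiles (−0.11, 0.220). Gpam (chromosome 19, 55067268 to 55127238, minus strand) was at 4.41 to 5.51 FPKM among FL mice and at 4.36 to 5.41 FPKM among KO mice, nearly the same range. Its log2 fold change was −0.07 (95% interval −0.23 to 0.10, adjusted p = 0.546 from limma).

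KO mouse 2 was the highest KO mouse for 6 of the 10 members, among them all 3 Agpat genes, Lpin2, Pcyt2 and Lpcat3, and the lowest for none. KO mouse 5 was the lowest for Gpam, Lpin1, Lpin2 and Pcyt1a and the highest for Lpin3. These were also the KO mice with the least and the most acinar marker FPKM. KO mouse 3 had nearly as little as KO mouse 2, at 3122 against 2952 FPKM. It was the highest KO mouse for Gpam, Lpin1 and Pcyt1a and the lowest for Lpin3. A part of acinar cells in the members' values was not tested. Among FL mice, mouse 4 was highest for 4 members, mouse 1 lowest for Gpam, Lpin1, Lpin2 and Pcyt1a, and mouse 2 lowest for Agpat1, Agpat3, Pcyt2 and Lpcat3.

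Because a ratio within a library does not depend on how libraries were scaled, the make-up of each step was also described by mouse. Agpat3 held 57.1 ± 2.0% of the summed FPKM of Agpat1 to Agpat5 in FL and 55.5 ± 1.62% in KO (SD, n = 5), Agpat1 24.3 ± 0.908% and 25.5 ± 0.768%, and Agpat2 8.26 ± 0.427% and 8.04 ± 0.465%. Each of these shares overlapped between the groups. The sum itself, which was not tested, had a mean of 276 ± 16.8 FPKM over FL mice and of 233 ± 20.5 FPKM over KO mice (SD, n = 5), with KO mouse 2 at 260.9 FPKM within the FL range. Gpam was a minor part of the glycerol-3-phosphate acyltransferases, at 14.6 ± 1.22% in FL and 13.3 ± 0.981% in KO, beside Gpat4 at 83.8 ± 1.14% and 83.5 ± 0.971% (SD, n = 5).

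**Figure D2:**
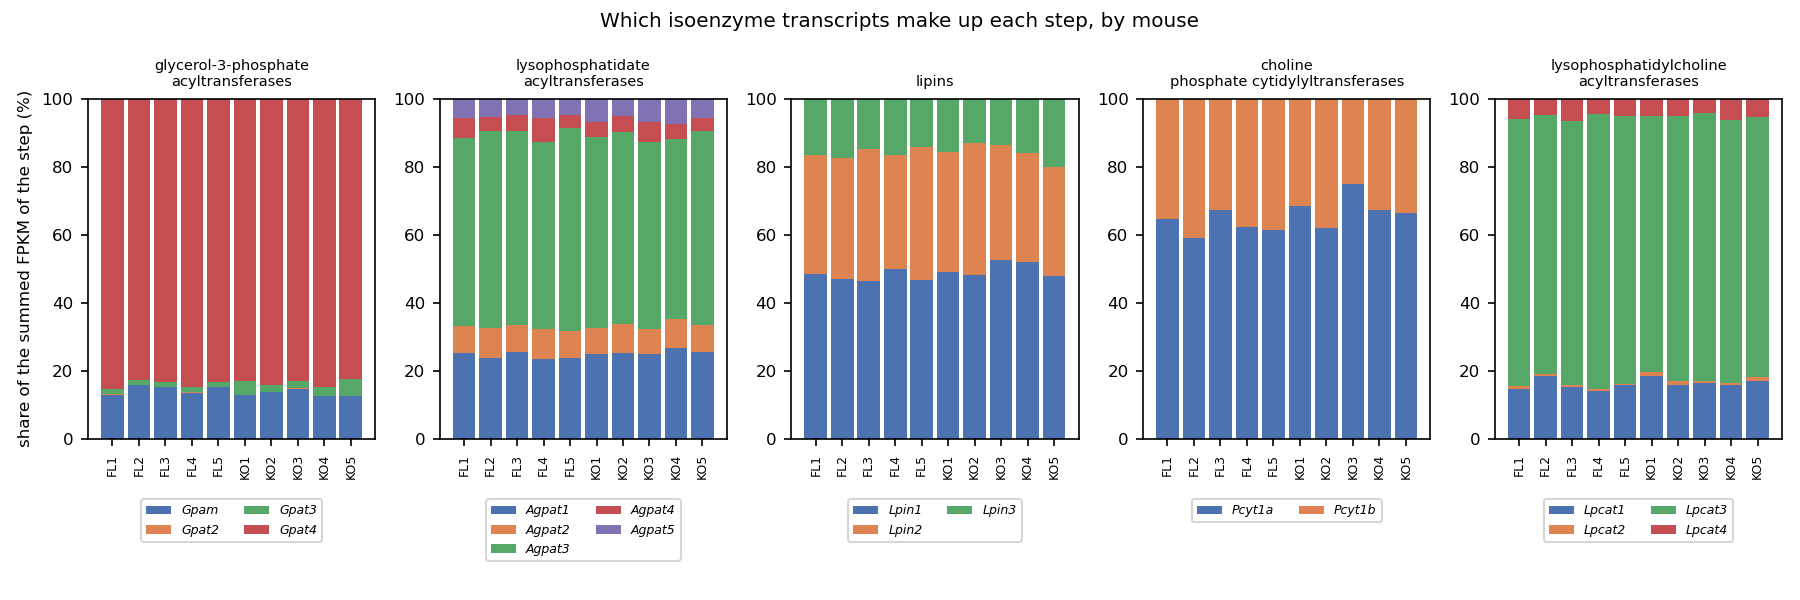
Share of each isoenzyme transcript in the summed FPKM of its step (%, stacked to 100) in each of the 10 libraries. Agpat3 holds 52.9 to 59.8% of its step and Lpcat3 75.1 to 80.8% of its step, with FL and KO libraries overlapping.

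Lipins convert phosphatidate to diacylglycerol, and the first of them also acts in the nucleus as a transcriptional coactivator. None of the 3 passed the test. Lpin1 (chromosome 12, 16535669 to 16610966, minus strand) was at 11.3, 12.0, 11.8, 12.6 and 12.0 FPKM in FL mice 1 to 5 and at 12.3, 12.9, 13.3, 12.5 and 10.8 FPKM in KO mice 1 to 5. Here KO mice 2 and 3 exceeded the highest FL mouse and KO mouse 5 was below the lowest, so the groups overlapped in both directions. Its log2 fold change was 0.04 (95% interval −0.08 to 0.17, adjusted p = 0.633 from limma), the highest among the members. Lpin2 (chromosome 17, 71182560 to 71249817, plus strand) was at 8.10 to 10.1 FPKM among FL mice and 7.15 to 10.4 FPKM among KO mice, with a log2 fold change of −0.09 (95% interval −0.30 to 0.11, adjusted p = 0.491 from limma). Lpin3 (chromosome 2, 160880670 to 160906002, plus strand) was at 3.63 to 4.47 FPKM among FL mice and 3.43 to 4.51 FPKM among KO mice. Its log2 fold change of −0.04 (95% interval −0.21 to 0.12, adjusted p = 0.714 from limma) was above 0 after rescaling by the median ratio.

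The make-up of the lipin pool overlapped between the groups. Lpin1 was 47.8 ± 1.45% of the summed lipin FPKM in FL and 50.03 ± 2.18% in KO, Lpin2 36.3 ± 2.48% and 34.3 ± 2.79%, and Lpin3 15.9 ± 1.4% and 15.7 ± 2.77% (SD, n = 5). The sum was 25.0 ± 0.997 FPKM among FL mice and 24.7 ± 1.61 FPKM among KO mice (SD, n = 5), with overlapping values. Ctdnep1 and Cnep1r1, which encode the phosphatase that dephosphorylates lipins and its partner, did not pass either, at log2 fold changes of 0.05 (adjusted p = 0.556 from limma) and −0.11 (adjusted p = 0.323 from limma).

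Pcyt1a and Pcyt2, the members that activate choline and ethanolamine, did not pass. Pcyt1a, the rate-limiting enzyme of the CDP-choline route, spans chromosome 16, 32430921 to 32475070 (plus strand). It was at 21.5 to 24.1 FPKM among FL mice and at 20.8 to 22.8 FPKM among KO mice, and its spread was narrow in both groups, with coefficients of variation of 4.30% in FL and 3.52% in KO, where members ranged from 3.86% to 10.8% in FL and from 3.52% to 14.4% in KO. Its log2 fold change was −0.06 (SE 0.04, adjusted p = 0.375 from limma), and the 95% interval, −0.16 to 0.04, was the narrowest of the 10. Pcyt2, the corresponding enzyme of the CDP-ethanolamine route (chromosome 11, 120610087 to 120617936, minus strand), was at 16.4 to 21.0 FPKM among FL mice and 16.3 to 20.8 FPKM among KO mice. The log2 fold change of Pcyt2 was 0.01 (95% interval −0.18 to 0.19, adjusted p = 0.970 from limma), and it was below 0 without FL mouse 1, 2 or 4 or KO mouse 2, 3 or 5 (down to −0.035). The FPKM ratio of Pcyt1a to Pcyt2 was 1.24 ± 0.143 in FL and 1.18 ± 0.116 in KO (SD, n = 5) and overlapped between the groups.

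Lpcat3, which favours polyunsaturated acyl chains, spans chromosome 6, 124663027 to 124704418 (plus strand). It was at 64.1 to 86.4 FPKM in FL, and the KO values of 66.0 to 80.03 FPKM fell within that range for all 5 mice. Its log2 fold change was −0.03 (95% interval −0.21 to 0.16, adjusted p = 0.838 from limma) and was above 0 after rescaling by the median ratio, by quantiles or to TPM, and without FL mouse 4 or KO mouse 1 or 5 (up to 0.027). A stretch of 334 bases is shared with Emg1 on the other strand, at a mean of 73.2 FPKM among FL mice and 61.0 FPKM among KO mice. Of the summed FPKM of Lpcat1 to Lpcat4, Lpcat3 held 78.4 ± 1.7% in FL and 77.0 ± 1.38% in KO (SD, n = 5). For the 7 members outside the Agpat genes, the 95% intervals of the log2 fold change reached no lower than −0.30 and no higher than 0.19, so changes within these bounds are not excluded for them.

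The pathway list held 38 further genes, and 36 of them were above the filter, Gpat2 and Lpcat2 being below it. Of these 36, 3 were lower in KO (8.33%, against 16.5% of all genes tested) and 5 higher (13.9%, against 9.05%). Together 22.2% were called where 25.5% of all genes tested were, and the median log2 fold change of the 36 was −0.0024. Among the 5 higher is Gpat3, which reached the filter through its KO mean alone and so had to differ to be tested. FL and KO values did not overlap for 6 of the 36, near the 19.1% of all genes tested. Among genes of glycerol-3-phosphate supply and further acyltransferases, Agpat4, Agpat5 and Lclat1 included, 1 of 8 tested was lower and 3 were higher, in the CDP-choline and CDP-ethanolamine branches 1 of 10 was lower and 2 were higher, and among further lysophospholipid acyltransferases 1 of 6 was lower. None of the 3 genes of phosphatidylserine synthesis, the 7 of the CDP-diacylglycerol branch and the 2 that control lipins passed.

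**Figure D3:**
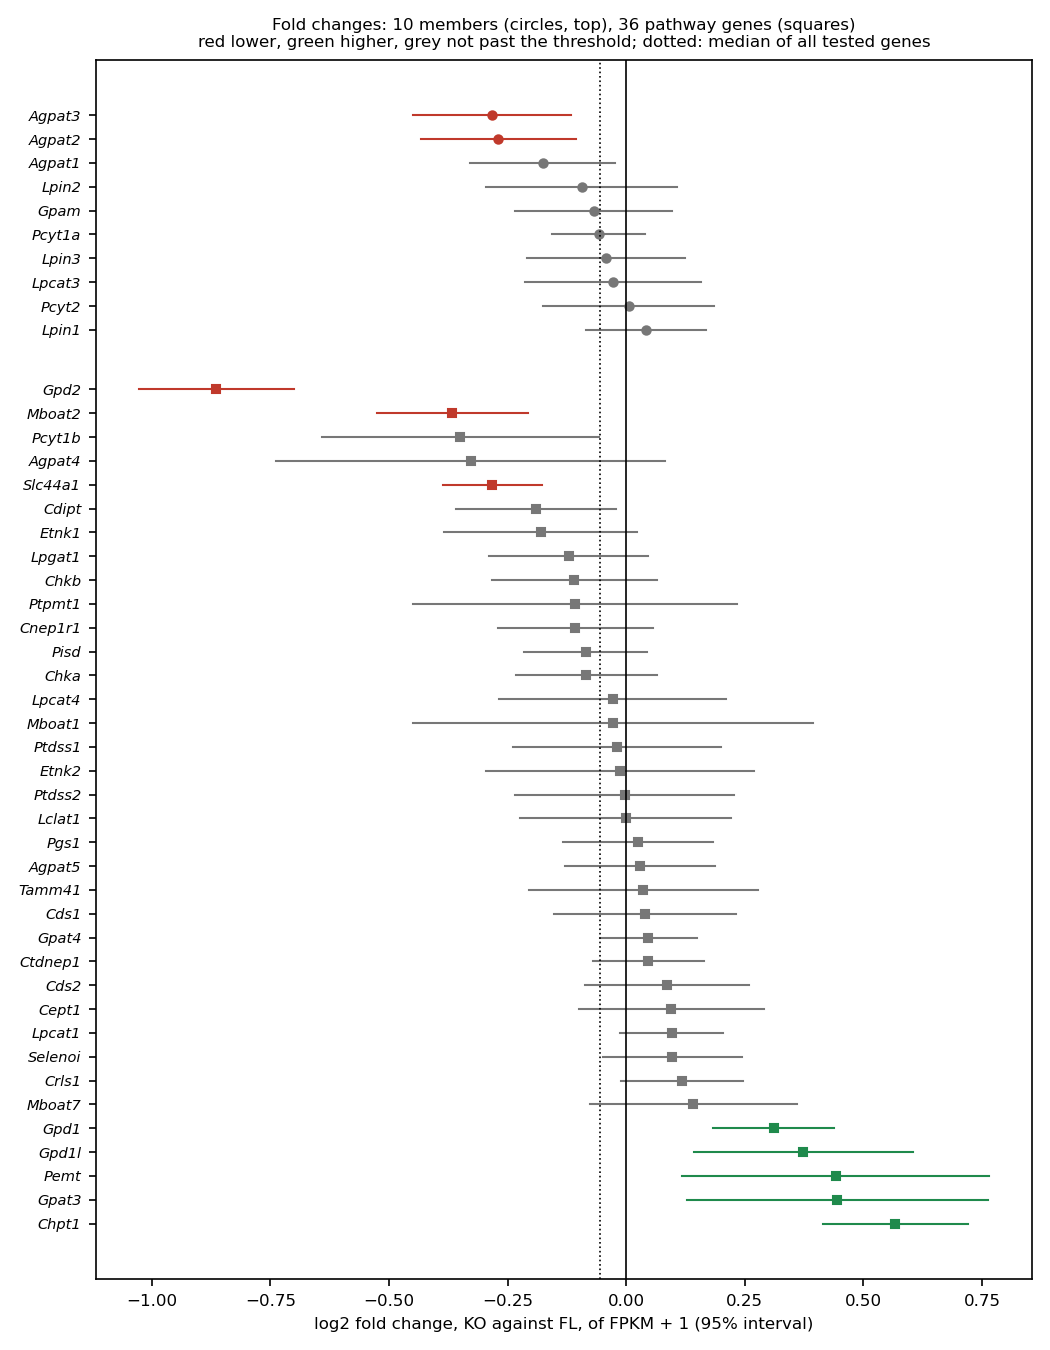
Log2 fold change of FPKM + 1 in KO against FL with its 95% interval from limma, for the 10 members (circles) and 36 tested pathway genes (squares); red marks genes lower in KO, green genes higher, grey genes not past an adjusted p of 0.05, and the dotted line the median of all genes tested, −0.06. Agpat3 and Agpat2 are the only members in colour, and the pathway genes extend from Gpd2 at −0.86 to Chpt1 at 0.57.

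The glycerol-3-phosphate dehydrogenases differed in direction. Gpd2, the mitochondrial enzyme that oxidizes glycerol-3-phosphate, was at 29.6 to 34.5 FPKM among FL mice and 15.6 to 20.5 FPKM among KO mice, well apart. Its log2 fold change was −0.86 (SE 0.07, adjusted p = 1.6e-05 from limma). Gpd1, the cytosolic enzyme that can form glycerol-3-phosphate, was higher in all 5 KO mice, at 22.5 to 28.1 FPKM against 19.2 to 20.4 FPKM in FL, with a log2 difference of 0.31 ± 0.06 (SE; adjusted p = 0.00307 from limma). The ratio of Gpd2 to Gpd1 within a library was 1.61 ± 0.0754 in FL and 0.688 ± 0.0408 in KO (SD, n = 5) and did not overlap. Gpd1l, a relative of Gpd1 that the study had singled out on these same libraries, rose from 19.2 ± 3.53 to 24.9 ± 2.27 FPKM (SD, n = 5; adjusted p = 0.0243 from limma), with FL mouse 4 at 25.4 FPKM among the KO mice. That call was lost when FL mouse 1, 2, 3 or 5 or KO mouse 3 was left out (adjusted p from 0.0510 to 0.0579 from limma), or without a filter (adjusted p = 0.0506).

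Gpat3, an ER enzyme of the step that Gpam also catalyses and listed as Agpat9, was at 0.513 to 0.586 FPKM among FL mice and 0.721 to 1.75 FPKM among KO mice, without overlap. KO mice 1 and 5, at 1.56 and 1.75 FPKM, were above the other 3, at 0.721 to 0.900 FPKM. Its mean was 0.543 FPKM over FL mice, under the filter, and 1.14 FPKM over KO mice, so the values are better read as a description than as a call. On the log2(FPKM + 1) scale, which understates changes of genes this low, the fold change was 0.44 (SE 0.14, adjusted p = 0.0433 from limma), and with a pseudocount of 0.1 it was 0.87. The gene no longer passed without any 1 of the 5 FL mice or KO mouse 1 or 4 (adjusted p from 0.0575 to 0.103 from limma), after quantile normalization (0.31, adjusted p = 0.159) or without a filter (adjusted p = 0.0568), and without KO mouse 5 it was under the filter and not tested. Gpat3 made up 1.54 ± 0.119% of the step in FL and 3.13 ± 1.39% in KO (SD, n = 5). The most abundant enzyme of the step, Gpat4, was at 29.7 ± 1.16 and 30.7 ± 1.46 FPKM (SD, n = 5; adjusted p = 0.498 from limma).

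On the choline side Slc44a1 was lower and Chpt1 higher in KO, Pemt passed at the threshold, and Cept1 did not pass. Slc44a1, a choline transporter, fell from 41.2 ± 1.63 to 33.7 ± 1.66 FPKM (SD, n = 5), a log2 difference of −0.28 ± 0.05 (SE; adjusted p = 0.0016 from limma), with all 5 KO mice below the FL mice. Chpt1, which joins CDP-choline to diacylglycerol, rose from 11.7 to 13.4 FPKM across FL mice to 16.5 to 20.7 FPKM across KO mice, a log2 difference of 0.57 ± 0.07 (SE; adjusted p = 0.000204 from limma). Cept1, which also joins CDP-choline to diacylglycerol, was at 18.4 ± 2.32 and 19.6 ± 1.87 FPKM (SD, n = 5; adjusted p = 0.468 from limma), with overlap. Pemt, which methylates phosphatidylethanolamine to phosphatidylcholine and is best known from liver, was at 8.34 ± 2.26 FPKM among FL mice and 11.4 ± 1.23 FPKM among KO mice (SD, n = 5), with overlap at FL mouse 4 (11.6 FPKM). Its call (adjusted p = 0.0485 from limma) was at the threshold and was lost without FL mouse 1, 2, 3 or 5 or any 1 KO mouse (adjusted p from 0.0530 to 0.109 from limma), or without a filter (adjusted p = 0.09997). Pcyt1b, the second isoenzyme of the Pcyt1a step, was at 13.5 ± 2.07 and 10.4 ± 2.05 FPKM (SD, n = 5) and did not pass (adjusted p = 0.0774 from limma), and Pcyt1a was 63.0 ± 3.11% of the FPKM of that step in FL and 67.9 ± 4.6% in KO, with overlap.

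Beside Lpcat3, Mboat2, a lysophospholipid acyltransferase of the same family, fell from 40.8 to 50.6 FPKM across FL mice to 30.1 to 36.9 FPKM across KO mice, a log2 difference of −0.37 ± 0.07 (SE; adjusted p = 0.0041 from limma). Mboat7, which acts on lysophosphatidylinositol, was at 33.6 ± 3.78 and 37.2 ± 4.99 FPKM (SD, n = 5; adjusted p = 0.326 from limma). In the CDP-diacylglycerol branch, Cdipt, which makes phosphatidylinositol, came nearest to the threshold, at 130 ± 11.9 FPKM among FL mice and 114 ± 10.5 FPKM among KO mice (SD, n = 5; adjusted p = 0.093 from limma).

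**Figure D4:**
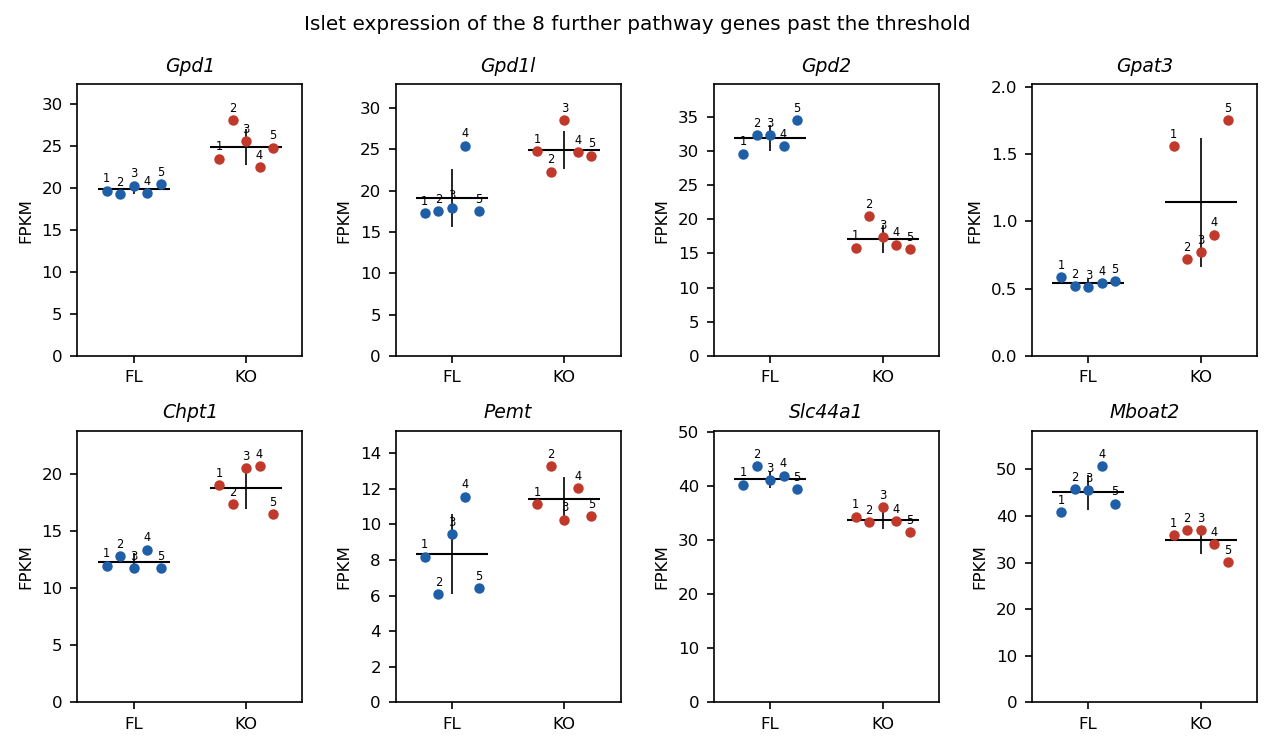
FPKM in each mouse of the 8 pathway genes past the threshold, with FL in blue, KO in red, replicate numbers beside the points, means as horizontal lines and SD as vertical lines (n = 5 per group). The groups are apart for Gpd1, Gpd2, Gpat3, Chpt1, Slc44a1 and Mboat2, and overlap for Gpd1l through FL mouse 4 and for Pemt through FL mouse 4.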

How the data were processed

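Islet RNA of 5 FL and 5 KO mice was sequenced, each mouse giving 1 library. A table of FPKM was deposited by the authors; the submitters' processing notes name STAR 2.5.2a, Cuffnorm 2.2.1 and the builds mm10 and GRCm38. How libraries were scaled, which could shift small differences, is not given in the sources used here, and FPKM hold no counting error. The comparison of FL with KO used limma 3.58.1 (R 4.3.3, eBayes with its trend option) on log2(FPKM + 1). Tested were 13065 genes whose mean reached 1 FPKM in either group, without covariates and with Benjamini-Hochberg adjustment. Single genes were also given an exact permutation test over mice. These steps were first tested on simulated data.

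The members and gene lists were chosen with earlier results of these data known. Named were the 10 members, Fitm2, and pathway genes past the threshold (at most the 12 with the largest change) or listed at 0 in a whole group; others were named after their values were seen. Positions came from GENCODE M21, in which 6 of the 10 member identifiers have the version of the table, and promoters from RefSeq (GRCm38.p6). Alternatives were another pseudocount, filters, rescalings, robust eBayes, library weights, a replicate block, a fold threshold and leaving out each mouse. Summaries used Python 3.11.15 and pandas 2.3.3.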

Additional observations from a re-analysis of the deposited data

Results flagged for a closer look

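In 38 groups of 5 mice, FL and KO for each of the 10 members, Fitm2 and the 8 pathway genes past the threshold, 1 mouse stood far from the other 4, where chance gives about 1 in 20 groups. It was FL mouse 4 for Gpd1l, at 25.4 FPKM, with the other 4 FL mice between 17.3 and 17.9 FPKM. No group of a member had such a mouse.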

How the results depend on the processing

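Which of the lower members passed depended on the processing, and the cause was not tested. With TPM 1 member, Agpat3, was lower in KO (Agpat2 at −0.23 on the log2 scale did not pass), under a 1.5-fold threshold 0 were (Agpat2 at −0.27 and Agpat3 at −0.28 did not pass), and with library weights Agpat1 passed as well, at −0.23. The replicate numbers did not pair the mice, since deviations of FL and KO mice with the same number correlated from −0.10 to 0.00 over genes; with the replicate block, 1 member, Agpat3, was lower (−0.28, adjusted p = 0.049 from limma), Agpat2 not passing (−0.27, adjusted p = 0.0619), 3 pathway genes were higher, Gpat3 and Pemt no longer passing, 4 were lower, and over all genes 1494 were lower and 874 higher. Among the members and the pathway genes past the threshold, the block changed no other call. Leaving out 1 mouse gave 1 to 3 lower members, 2 to 4 higher and 3 to 5 lower pathway genes, and log2 fold changes from −0.22 to −0.13 for Agpat1, −0.33 to −0.24 for Agpat2, −0.035 to 0.050 for Pcyt2 and −0.080 to 0.027 for Lpcat3; the 5 lower pathway genes came without KO mouse 2, 2 higher without FL mouse 1, 2, 3 or 5, and 3 higher without KO mouse 1, 3, 4 or 5. Without a filter 2 pathway genes were higher, with library weights 5 were lower, and under the 1.5-fold threshold 0 were higher and 1, Gpd2, lower, as were 290 of all genes, with 349 higher. Signs turned for Lpin3 (0.0040 after median ratio rescaling), Pcyt2 (−0.077 with library weights) and Lpcat3 (0.030 by median ratio, 0.015 as TPM and 0.032 by quantiles), none of which passed in any setting. The median log2 fold change of all genes was −0.06, and −0.0033 by median ratio. Lpin3 could not be tested with a filter of 5 FPKM. Depth in reads is unknown, which limits low genes such as Gpat3.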
